A study of Mus musculus with 6 samples.

Results

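Fragments of mitochondrial transfer RNA (mt-tRNA), mitochondrial ribosomal RNA (mt-rRNA) and nuclear-encoded ribosomal RNA (rRNA) were examined in small RNA libraries of mouse round spermatids. The members were all entries of the small RNA count table whose deposited names end in one of these 3 classes, 329 of 45932 entries, with 22 mt-tRNAs, 2 mt-rRNAs and 305 rRNA entries. The rule used names only and no measured value. The study compared 3 libraries from males with a global Miwi knockout (KO) with 3 libraries from wild-type (WT) males, all C57BL/6 mice at postnatal day 21, as purified round spermatids. MIWI (PIWIL1) is a PIWI protein that binds piRNAs in meiotic and haploid male germ cells. Replicates carry numbers from 1 to 3, and no label says that these are different animals. The tests below therefore weigh a difference against the variation among libraries, part or all of which could be technical.

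The mitochondrial genome encodes its own 2 rRNAs and 22 tRNAs. Both strands are transcribed into long precursors, in which the tRNAs lie between the other genes and mark where the precursor is cut. The tRNAs then decode the messages of the respiratory chain on mitochondrial ribosomes, whose RNAs are the 12S rRNA (mt-Rnr1) and the 16S rRNA (mt-Rnr2). In the cytoplasm, 5S rRNA is a component of the large ribosomal subunit and is transcribed from repeated gene copies apart from the other rRNAs. In small RNA libraries, both kinds of molecule can appear as fragments. In germ cells, several factors of piRNA processing sit on the outer membrane of mitochondria.

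The sequences of the 5 mt-tRNAs to which the results below return were taken from the GENCODE M21 transcripts (GRCm38). All 329 members were found there by transcript ID. Capitals mark the anticodon, located within its loop, and each RNA is written 5′ to 3′ on its own strand without the CCA end that is added after cutting. mt-Ts2 (chrM:11613-11671, plus strand) is the serine tRNA for AGY codons and, at 59 nt, the shortest of the 22. It follows mt-Th directly on the heavy-strand transcript and lacks the D arm of other tRNAs. mt-Tv (chrM:1025-1093, plus strand) decodes valine, lies between both rRNA genes, and in human mitochondria is also a structural part of the ribosome. mt-Tm (chrM:3845-3913, plus strand) serves both initiation and elongation with methionine. mt-Tr (chrM:9808-9875, plus strand) decodes arginine, and mt-Tp (chrM:15356-15422, minus strand) decodes proline from the light-strand transcript.
mt-Ts2: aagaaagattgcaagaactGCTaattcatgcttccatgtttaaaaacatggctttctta
mt-Tv: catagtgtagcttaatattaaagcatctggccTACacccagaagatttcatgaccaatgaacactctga
mt-Tm: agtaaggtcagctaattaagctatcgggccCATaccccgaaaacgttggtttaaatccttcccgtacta
mt-Tr: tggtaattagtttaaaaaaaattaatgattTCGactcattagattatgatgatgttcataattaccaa
mt-Tp: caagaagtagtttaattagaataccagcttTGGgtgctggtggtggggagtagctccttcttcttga

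Counts were scaled to 100000 miRNA counts of the same library, and the results are called scaled counts. The KO libraries held 146487 to 243655 miRNA counts and the WT libraries 179761 to 246030, so these denominators lay in a similar range. Total counts of the table did not: they were 747443 to 1335013 in KO and 3114845 to 5037232 in WT libraries. piRNAs made up 79.5% to 80.8% of all counts in KO and 93.3% to 93.9% in WT libraries, so the share of a class in the whole table depends on the piRNAs. Miwi itself is not measured by these small RNA counts. Germ cell miRNAs (miR-34b, miR-34c, miR-449a, miR-18a and miR-19b) summed to 37539 to 41930 scaled counts in KO and 34873 to 36531 in WT libraries. Of 17 listed names for miRNAs of other testis cells, 13 were found and none of these was at 0. The names not found were older forms of names that were found. The 13 summed to 2590 to 2994 scaled counts in KO and 3170 to 4172 in WT libraries, highest in replicate 3 of both genotypes. Most of this was mesenchymal and peritubular miRNAs, with means of 1699 in KO and 2466 in WT. Only that group was highest in replicate 3 of both genotypes. It and the erythroid miRNAs were lower in KO without overlap. Endothelial, Sertoli and leukocyte miRNAs overlapped, the last with means of 183 in KO and 162 in WT. The part of these miRNAs in the results below was not tested.

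Replicate 3 of each genotype stood apart from replicates 1 and 2, and values without both of these libraries are therefore given beside the results. In edgeR without them, 8 members passed the count filter and were tested. mt-Te, mt-Td, mt-Ti, mt-Tq, mt-Tf and mt-Tr did not, and have no edgeR value without them. Summed mt-tRNA in replicate 3 was 4.21 times the mean of replicates 1 and 2 in KO and 3.33 times in WT. The nuclear snoRNAs showed 3.82 times in KO and 3.23 times in WT. The factors were smaller for mt-rRNA, 1.79 in KO and 1.93 in WT, and for nuclear rRNA, 1.77 in KO and 1.60 in WT. Of the 22 mt-tRNAs, 17 were highest in replicate 3 in KO and 19 in WT, 17 of them in both.

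Summed mt-tRNA was 105, 99.0 and 428 scaled counts in the KO libraries, against 303, 321 and 1039 in the WT libraries, from 145 to 1044 counts in KO and 544 to 2557 in WT. The 2 genotypes overlapped, because KO replicate 3 lay above WT replicates 1 and 2. The means were 211 ± 189 in KO and 554 ± 420 in WT (SD, n = 3 each), a log2 ratio of -1.40 (two-sided exact permutation test, p = 0.3). Counting error was much smaller than this spread, with a 95% Poisson interval of 403 to 455 for KO replicate 3. Without both replicate 3 libraries the log2 ratio was -1.61, and the 2 KO libraries lay below the 2 WT libraries (exact permutation test, p = 0.333, the smallest that 2 against 2 allows). With the table total as denominator the log2 ratio turned to 0.42 (exact permutation test, p = 0.6). A single library moved the miRNA-scaled value to -2.44 (without KO replicate 3) or -0.57 (without WT replicate 3).

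Summed mt-rRNA was 59.6, 45.7 and 94.4 scaled counts in KO libraries, against 82.3, 72.4 and 149 in WT libraries. Again KO replicate 3 lay within the WT range. The means of 66.6 ± 25.1 in KO and 101 ± 41.7 in WT (SD, n = 3 each) gave a log2 ratio of -0.61 (exact permutation test, p = 0.3), and -0.55 without both replicate 3 libraries. It was -0.22 without WT replicate 3 and -0.94 without KO replicate 3. On the table total the log2 ratio was 1.18, with every KO library above every WT library (exact permutation test, p = 0.1).

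Summed nuclear rRNA was 11.9, 15.02 and 23.8 scaled counts in KO libraries, against 37.8, 32.1 and 56.1 in WT libraries. Every KO library lay below every WT library. The same held for the sums of cytosolic tRNA, piRNA and endo-siRNA and for 79.3% of all tested entries, which are mostly piRNAs. The means were 16.9 ± 6.16 in KO and 42.0 ± 12.5 in WT (SD, n = 3 each), a log2 ratio of -1.31 (exact permutation test, p = 0.1, the smallest that 3 against 3 allows; 0.3 after Benjamini-Hochberg adjustment over the 3 classes). The log2 ratio was -1.38 without both replicate 3 libraries and 0.47 on the table total (exact permutation test, p = 0.3).

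**Figure D1:**
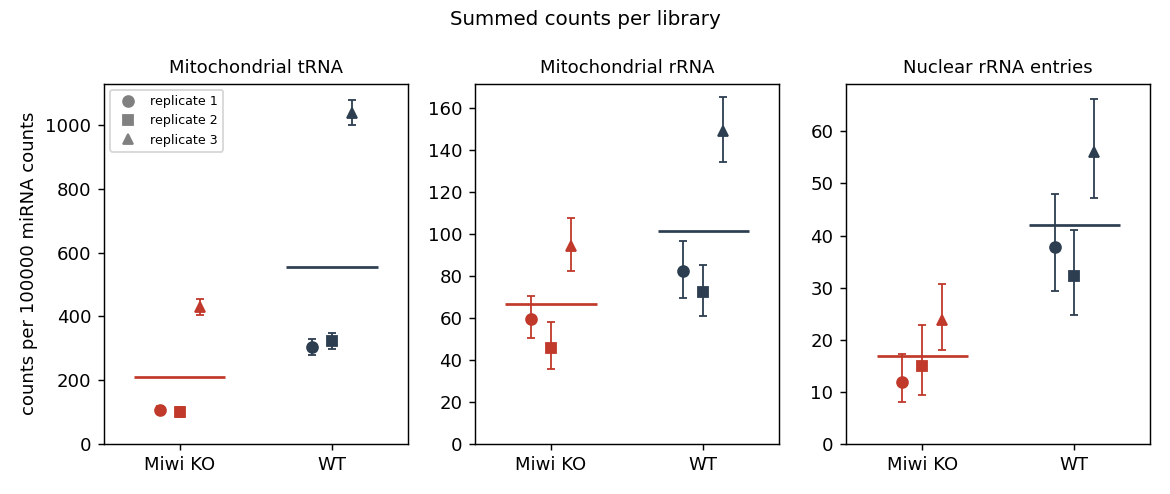
Summed counts per 100000 miRNA counts (vertical axis, linear, from 0) of mt-tRNA, mt-rRNA and nuclear rRNA in each library, KO left and WT right. Symbols give the replicate, bars the 95% Poisson interval and horizontal lines the mean of 3 libraries; replicate 3 is the highest library of both genotypes in all 3 classes, and only for nuclear rRNA do KO and WT libraries not overlap, while on the table total the KO means are the higher ones.

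Other classes in the same libraries give the scale of these differences. On miRNA-scaled sums the log2 ratio of KO over WT was -2.32 for cytosolic tRNA, -1.99 for piRNA, -1.60 for snoRNA, -0.27 for snRNA and -0.25 for endo-siRNA. The 3 classes described here thus lay between the snRNA and the cytosolic tRNA values. Per 100 cytosolic tRNA counts, mt-tRNA had 8.46, 8.06 and 21.1 counts in KO libraries and 5.01, 5.09 and 10.3 in WT libraries. The KO means of this ratio were higher, 12.5 ± 7.41 against 6.80 ± 3.03 (SD, n = 3 each), but the genotypes overlapped through WT replicate 3 (exact permutation test, p = 0.3). The log2 ratio of 0.88 was 0.71 without both replicate 3 libraries, 0.28 without KO replicate 3 alone and 1.31 without WT replicate 3 alone. Per 100 snoRNA counts, mt-tRNA had 11.2, 14.6 and 13.9 counts in the KO libraries and 9.20, 14.8 and 11.8 in the WT libraries (exact permutation test, p = 0.7), a log2 ratio of 0.15, or 0.11 without both replicate 3 libraries. That ratio showed no step at replicate 3, so mt-tRNA and snoRNA shared the rise at replicate 3. Between WT replicates 1 and 2 they moved apart, with snoRNA at 3291 and 2177 scaled counts and mt-tRNA at 303 and 321. Nuclear rRNA had 0.963, 1.22 and 1.17 counts per 100 cytosolic tRNA counts in KO and 0.627, 0.509 and 0.556 in WT libraries, without overlap (exact permutation test, p = 0.1), with a log2 ratio of 0.99 and, without both replicate 3 libraries, of 0.94. These ratios do not depend on the scaling of the libraries.

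The mt-tRNA counts were uneven between genes. All 22 mt-tRNAs had counts, 17 of them in every library, and their totals over the 6 libraries ran from 3 for mt-Tt (threonine) to 1753 for mt-Ts2. mt-Ts2, mt-Tv and mt-Tm together held 70.7%, 61.4% and 74.4% of the mt-tRNA counts in KO libraries, against 77.6%, 74.4% and 79.8% in WT libraries. Without these 3, the other 19 still summed to 30.7, 38.2 and 110 scaled counts in KO and 67.9, 82.1 and 210 in WT libraries. mt-tRNAs cut from the light-strand transcript, 8 of the 22, made up 11.4%, 22.8% and 14.5% of mt-tRNA counts in KO and 14.0%, 15.2% and 13.5% in WT libraries. KO replicate 2 was the highest for that share and KO replicate 1 the lowest, and the genotypes overlapped (exact permutation test, p = 0.8). The log2 ratio of the share was 0.19, or 0.23 without both replicate 3 libraries.

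**Figure D2:**
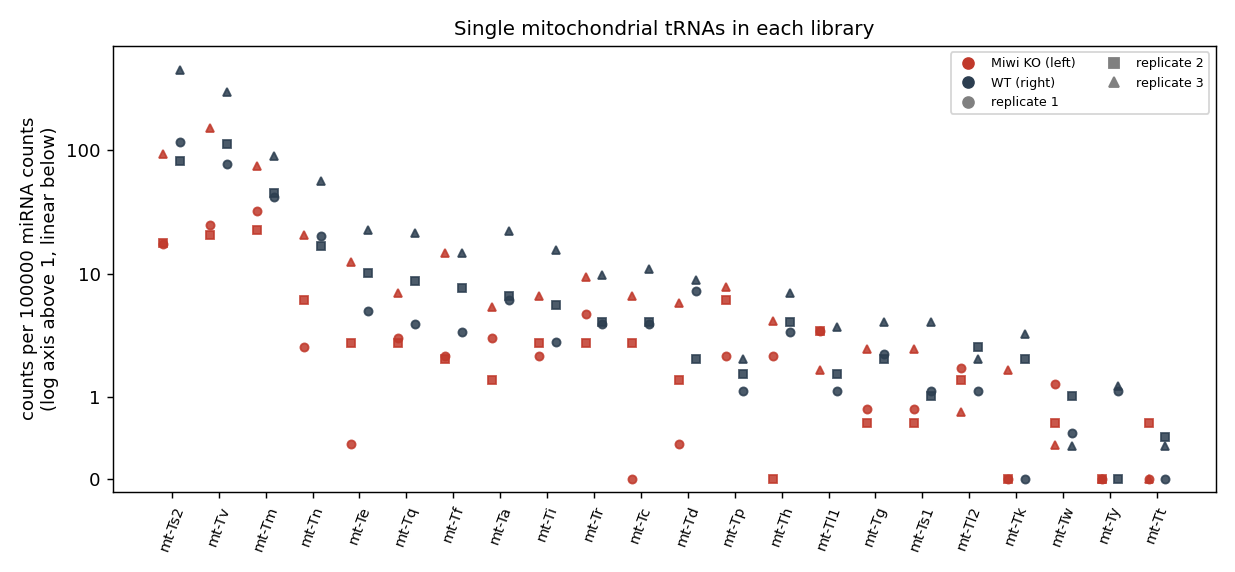
Counts per 100000 miRNA counts (vertical axis, logarithmic above 1 and linear below) of each of the 22 mt-tRNAs, ordered by their mean, with KO left and WT right at each name and symbols for the replicate. The 3 leftmost genes carry most counts, replicate 3 is highest for 17 mt-tRNAs in KO and 19 in WT, and mt-Tp has its 3 KO libraries above its 3 WT libraries.

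Single entries were tested with edgeR's quasi-likelihood test across the whole table, with the miRNA total as library size. The count filter left 26032 entries, with 14 members: 11 mt-tRNAs, both mt-rRNAs and 1 rRNA entry. At an adjusted p under 0.05, 10 of the 14 were lower in KO and none was higher. Across all tested entries, which are mostly piRNAs, 79.3% were lower and 5.53% higher, so the count of lower members lies near that background. Single libraries moved this count, while that of all entries changed little. It was 3 of 14 tested (mt-Ts2, mt-Tn and Gm24312) without WT replicate 3. It was 6 of 16 tested without KO replicate 1 or without KO replicate 2. Of all entries, 20644 were lower with every library kept. Without these libraries 19910, 21455 and 21992 were lower, in that order. Members lower numbered 13 of 13 tested without KO replicate 3, 11 of 16 without WT replicate 1 and 12 of 17 without WT replicate 2. All entries lower there numbered 21268, 21598 and 21680, in that order. The 11 mt-tRNAs had a median log2 fold change of -1.25, against -2.29 for all tested entries. Of the 26032 tested entries 25421 were piRNAs, with a median of -2.34. The medians were -1.38 for cytosolic tRNA, -1.80 for snoRNA, -0.94 for snRNA and -0.36 for endo-siRNA entries. Lower in KO were 8 of 11 mt-tRNAs, 37 of 55 cytosolic tRNAs and 79 of 81 snoRNAs. For snRNAs it was 12 of 19 and for endo-siRNAs 43 of 115. When TMM factors of the whole table were used, which moved the median of all entries up by 2.02 on the log2 scale, none of the 14 was lower and 6 were higher: mt-Rnr1, mt-Rnr2, mt-Tf, mt-Tv, mt-Tm and mt-Tr. On that scale 33.3% of all entries were higher and 40.8% lower. The direction of most members is therefore a direction relative to miRNAs, and 12 of the 14 change sign with the scale.

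mt-Ts2 had 17.5, 17.7 and 93.6 scaled counts in KO libraries, against 116, 81.6 and 443 in WT libraries. Only KO replicate 3 reached the WT range, where it passed WT replicate 2. Its log2 fold change was -2.28 ± 0.40 (SE; edgeR adjusted p = 1.45e-06), and -2.48 without both replicate 3 libraries. Leaving out 1 library gave -1.13 without WT replicate 3 and -3.61 without KO replicate 3, and the call was kept in both. It was negative on every scale tried, but with whole-table TMM factors it was -0.14 ± 0.34 and did not pass the test (edgeR adjusted p = 0.725). In the DESeq2 Wald test the value was -2.31 and passed less clearly (DESeq2 adjusted p = 0.0332). The exact permutation test on the scaled counts of mt-Ts2, which weighs only the spread among libraries, gave p = 0.2, where 0.1 is the smallest possible.

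mt-Tv had 24.7, 20.5 and 150 scaled counts in KO, against 77.3, 112 and 298 in WT libraries. KO replicate 3 was the only KO library within the WT range. The log2 fold change was -1.29 ± 0.38 (SE; edgeR adjusted p = 0.00185) on the miRNA scale and 0.83 ± 0.33 with whole-table TMM factors (edgeR adjusted p = 0.0226), a call in opposite directions. Without both replicate 3 libraries it was -2.05 on the miRNA scale. It was -2.84 without KO replicate 3, and the call was lost without WT replicate 3 (-0.49; edgeR adjusted p = 0.0994). In the DESeq2 Wald test the fold was much the same, -1.32, and did not pass (DESeq2 adjusted p = 0.227).

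mt-Tm had 32.0, 22.5 and 75.1 scaled counts in KO, against 41.7, 45.4 and 89.0 in WT libraries. The genotypes overlapped through KO replicate 3, and the log2 fold change of -0.42 ± 0.27 did not pass the test (SE; edgeR adjusted p = 0.149). Without both replicate 3 libraries it was -0.64 and passed (edgeR adjusted p = 0.00992). It also passed without KO replicate 3 (-1.10), WT replicate 1 (-0.61) or WT replicate 2 (-0.58). With whole-table TMM factors it was 1.66 ± 0.25 (edgeR adjusted p = 4.77e-08). mt-Tr, the tested mt-tRNA with the value nearest to 0 on the miRNA scale, had 4.69, 2.73 and 9.44 scaled counts in KO and 3.89, 4.08 and 9.75 in WT libraries. Its log2 fold change was -0.05 ± 0.43 (edgeR adjusted p = 0.921) on the miRNA scale and 2.00 ± 0.41 with whole-table TMM factors (edgeR adjusted p = 2.71e-05).

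Around the origin of light-strand replication lie the light-strand tRNAs mt-Ta (alanine), mt-Tn (asparagine), mt-Tc (cysteine) and mt-Ty (tyrosine). mt-Ta had 2.98, 1.37 and 5.34 scaled counts in KO, against 6.12, 6.63 and 21.9 in WT libraries. It was the only mt-tRNA of the 22 whose 3 KO libraries all lay below its 3 WT libraries on this scale. Of all tested entries 79.3% did so, but only 11 of the 22 mt-tRNAs passed the count filter and were tested. The log2 fold change of mt-Ta was -1.78 ± 0.46 (SE; edgeR adjusted p = 5.56e-04) on the miRNA scale and 0.27 ± 0.45 with whole-table TMM factors (edgeR adjusted p = 0.597). mt-Tn had 2.56, 6.14 and 20.5 scaled counts in KO, against 20.03, 16.8 and 56.1 in WT libraries. KO replicate 3 lay above WT replicates 1 and 2, and the log2 fold change was -1.64 ± 0.40 (SE; edgeR adjusted p = 2.72e-04), or 0.44 ± 0.37 with whole-table TMM factors (edgeR adjusted p = 0.269). Without WT replicate 3, the miRNA-scaled value was -0.84 and still passed for mt-Tn, and was -0.86 without passing for mt-Ta (edgeR adjusted p = 0.0264 and 0.09); without KO replicate 3 that of mt-Tn was -2.96. Without both replicate 3 libraries the values were -1.41 for mt-Ta and -2.19 for mt-Tn, and both passed (edgeR adjusted p = 0.0112 and 4.17e-06). In the DESeq2 Wald test mt-Tn had -1.66 and did not pass (DESeq2 adjusted p = 0.0965). mt-Tc had 0, 2.73 and 6.57 scaled counts in KO and 3.89, 4.08 and 10.97 in WT libraries. mt-Ty was at 0 in all KO libraries, which allows up to 0.480 scaled counts over the group, and had 5 counts in WT libraries.

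mt-Tp, the tRNA next to the control region in which light-strand transcription starts, had the opposite order. It had 2.13, 6.14 and 7.80 scaled counts in KO, against 1.11, 1.53 and 2.03 in WT libraries. All 3 KO libraries lay above all 3 WT libraries, which held for 1 of 22 mt-tRNAs and for 6.02% of all tested entries. The values rest on 33 counts in KO and 10 in WT, below the count filter. mt-Tp was thus not among the tested entries, and these shares cover unlike sets. With no filter its log2 fold change was 1.69 ± 0.58 (SE; edgeR adjusted p = 0.00604 over 40582 entries), and 3.87% of those entries were higher in KO. The remaining light-strand tRNAs, mt-Te (glutamate), mt-Tq (glutamine) and mt-Ts1 (serine, UCN codons), overlapped between genotypes. mt-Te had 0.426, 2.73 and 12.3 scaled counts in KO and 5.01, 10.2 and 22.8 in WT libraries. mt-Tq had 2.98, 2.73 and 6.98 scaled counts in KO and 3.89, 8.67 and 21.1 in WT libraries. Both were lower in KO on the miRNA scale, with a log2 fold change of -1.25 ± 0.50 for mt-Te (edgeR adjusted p = 0.0189) and -1.39 ± 0.45 for mt-Tq (edgeR adjusted p = 0.00461), and both had positive values that did not pass with whole-table TMM factors. Without WT replicate 3 neither passed (-0.47 for mt-Te, -0.51 for mt-Tq), and mt-Te also lost the call without KO replicate 1 (-0.66) or KO replicate 2 (-1.02). Without KO replicate 3 the values were -3.23 for mt-Te and -1.999 for mt-Tq. mt-Ts1 had 0.852, 0.683 and 2.46 scaled counts in KO and 1.11, 1.02 and 4.06 in WT libraries.

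Among the less abundant heavy-strand tRNAs, mt-Tf (phenylalanine), the first gene of the transcript, had 2.13, 2.05 and 14.8 scaled counts in KO, against 3.34, 7.65 and 14.6 in WT libraries. Its replicate 3 values were nearly equal between genotypes, and its log2 fold change of -0.38 ± 0.48 did not pass (SE; edgeR adjusted p = 0.454); with whole-table TMM factors it was 1.68 ± 0.45 (edgeR adjusted p = 8.23e-04). Without KO replicate 3 the miRNA-scaled value was -2.05 and passed (edgeR adjusted p = 0.00217), and without WT replicate 3 it was 0.30. mt-Ti (isoleucine) had 2.13, 2.73 and 6.57 scaled counts in KO and 2.78, 5.61 and 15.4 in WT libraries. mt-Td (aspartate) had 0.426, 1.37 and 5.75 scaled counts in KO and 7.23, 2.04 and 8.94 in WT libraries. Both were lower in KO on the miRNA scale, with log2 fold changes of -1.07 ± 0.48 and -1.19 ± 0.53 (edgeR adjusted p = 0.0355 and 0.0353), and were positive without passing when whole-table TMM factors were used. Without WT replicate 3 (-0.09 for mt-Ti, -0.73 for mt-Td), KO replicate 1 (-0.74 and -0.63 in that order) or KO replicate 2 (-0.92 and -0.97) neither passed. mt-Td also failed without WT replicate 1 (-1.08). Without KO replicate 3 the values were -1.79 for mt-Ti and -2.87 for mt-Td. mt-Tl1 (leucine, UUR codons) was an exception to the replicate pattern in KO, where its lowest value was in replicate 3, as for mt-Tl2 and mt-Tw below. mt-Tl1 had 3.41, 3.41 and 1.64 scaled counts in KO, from 8, 5 and 4 counts, and 1.11, 1.53 and 3.66 in WT libraries. The other 6 heavy-strand tRNAs, mt-Tg (glycine), mt-Th (histidine), mt-Tk (lysine), mt-Tl2 (leucine, CUN codons), mt-Tt and mt-Tw (tryptophan), also fell short of the count filter and overlapped between genotypes. Summed over libraries, mt-Th had 15 raw counts in KO and 31 in WT, and mt-Tg 9 counts in KO and 18 in WT. mt-Tl2 had 8 counts in KO and 12 in WT, and mt-Tk 4 counts in KO and 12 in WT. The rarest were mt-Tw, with 5 counts in KO and 4 in WT, and mt-Tt, with 1 count in KO and 2 in WT.

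**Figure D3:**
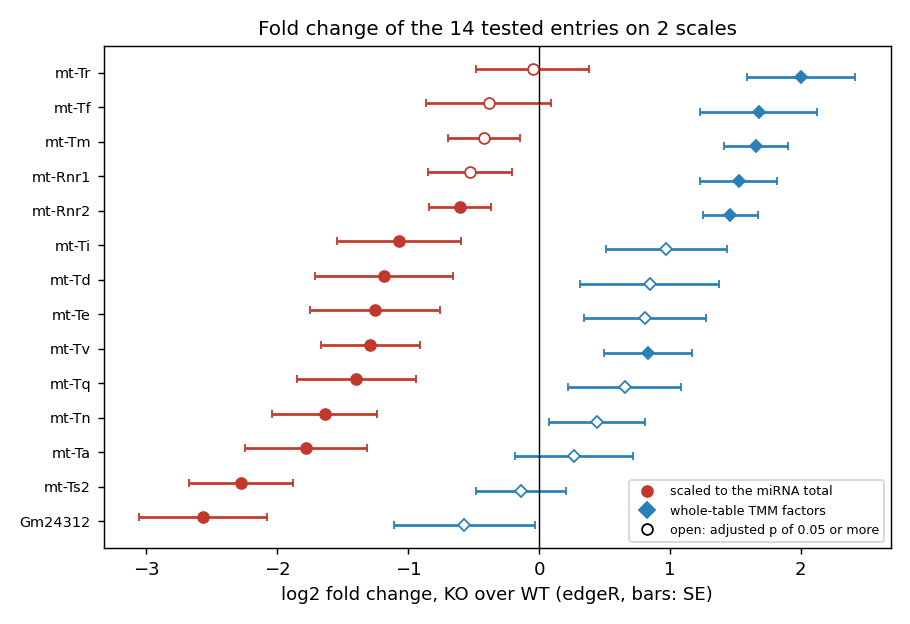
Log2 fold change of KO over WT (horizontal axis, bars: SE of edgeR) of the 14 tested members, scaled to the miRNA total (circles) and with whole-table TMM factors (diamonds); filled symbols have an adjusted p under 0.05. All 14 values are negative on the miRNA scale, and only Gm24312 and mt-Ts2 stay negative on the other.

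The share of each mt-tRNA within the mt-tRNA counts is free of the choice of scale. mt-Ts2 made up 16.7%, 17.9% and 21.8% of mt-tRNA counts in KO libraries, against 38.2%, 25.4% and 42.6% in WT libraries. Every KO share was below every WT share, with means of 18.8% ± 2.70 in KO and 35.4% ± 8.95 in WT (SD, n = 3 each; exact permutation test, p = 0.1). mt-Tm showed the opposite order, with 30.5%, 22.8% and 17.5% in KO and 13.8%, 14.1% and 8.56% in WT libraries. Its means were 23.6% ± 6.52 in KO and 12.2% ± 3.12 in WT (SD, n = 3 each; exact permutation test, p = 0.1). In contrast, mt-Tv overlapped, with 23.6%, 20.7% and 35.1% in KO and 25.6%, 34.9% and 28.6% in WT libraries (exact permutation test, p = 0.6).

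mt-Tr made up 4.47%, 2.76% and 2.20% of mt-tRNA counts in KO and 1.29%, 1.27% and 0.939% in WT libraries. mt-Tp made up 2.03%, 6.21% and 1.82% in KO and 0.368%, 0.476% and 0.196% in WT libraries. For both, as for mt-Ts1, the KO libraries lay above the WT libraries without overlap. In all, 5 of the 18 mt-tRNAs with at least 20 counts did not overlap, 1 lower and 4 higher in KO. Shares of a library have a fixed sum, so a lower share of mt-Ts2 goes with higher shares elsewhere. The 5 are therefore not independent. When all tested entries were set on the mt-tRNA total in the same way, 29.1% were lower and 6.36% higher without overlap. mt-Tp and mt-Ts1 fell short of the count filter and were not among those entries, so the sets are unlike. Each of the 5 had p = 0.1 in the exact permutation test, the smallest possible, and 0.36 after Benjamini-Hochberg adjustment over the 18. Of the 18, 10 did not overlap without both replicate 3 libraries or without KO replicate 3 alone, and 8 without WT replicate 2. Fewer libraries make separation easier: full separation has p = 0.333 for 2 against 2 and 0.2 for 2 against 3 in the exact permutation test. The share of all entries without overlap was not computed for these sets, so these counts cannot be set against it. Counting intervals were wide for the rare ones: the 95% Wilson interval of mt-Tp ran from 3.30% to 11.4% in KO replicate 2 and from 0.162% to 1.39% in WT replicate 2. In edgeR with the mt-tRNA total as library size, none of the 14 tested members passed, where 23.9% of all entries did; none of the 14 had an unadjusted p under 0.05. Without both replicate 3 libraries 4 of 8 tested members passed on this scale, where 71.2% of all entries did. mt-Ts2 was then lower in KO, with a log2 fold change of -0.88 (edgeR adjusted p = 3.79e-04). mt-Tm (0.96), mt-Rnr1 (0.98) and mt-Rnr2 (1.10) were higher relative to mt-tRNA (edgeR adjusted p = 1.01e-04, 0.0187 and 4.52e-07).

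**Figure D4:**
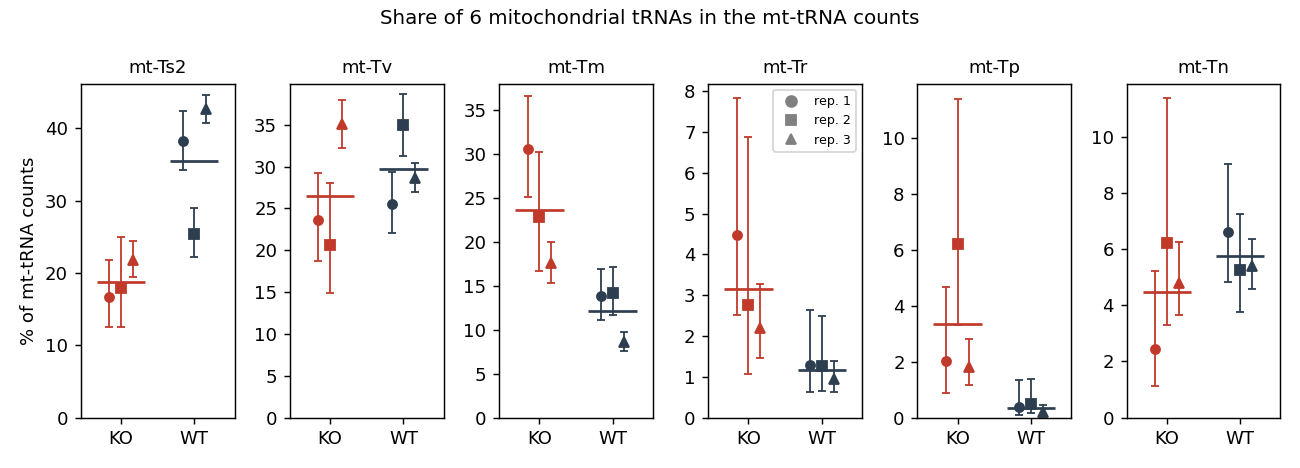
Share of 6 mt-tRNAs in the mt-tRNA counts of each library (vertical axes, percent, from 0, with a scale of their own in each panel), KO left and WT right. Symbols give the replicate, bars the 95% Wilson interval and horizontal lines the mean of 3 libraries; mt-Ts2 is lower and mt-Tm, mt-Tr and mt-Tp are higher in KO without overlap, while mt-Tv and mt-Tn overlap.

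The mt-rRNAs were led by the 16S RNA. mt-Rnr2 (chrM:1094-2675) had 49.8, 37.5 and 76.7 scaled counts in KO, against 67.9, 58.7 and 125 in WT libraries. mt-Rnr1 (chrM:70-1024) had 9.80, 8.19 and 17.6 scaled counts in KO, against 14.5, 13.8 and 24.0 in WT libraries. For each gene only KO replicate 3 reached the WT range. mt-Rnr2 was lower in KO on the miRNA scale, with a log2 fold change of -0.61 ± 0.24 (SE; edgeR adjusted p = 0.0172), and mt-Rnr1 did not pass with -0.53 ± 0.32 (edgeR adjusted p = 0.12). mt-Rnr2 lost the call without WT replicate 3 (-0.18), KO replicate 1 (-0.53) or KO replicate 2 (-0.42), and mt-Rnr1 passed without KO replicate 3 (-0.95; edgeR adjusted p = 0.0187). Without both replicate 3 libraries mt-Rnr2 had -0.51 and passed, and mt-Rnr1 had -0.62 and did not (edgeR adjusted p = 0.0205 and 0.119). With whole-table TMM factors both were higher, mt-Rnr2 by 1.46 ± 0.21 (edgeR adjusted p = 2.14e-08) and mt-Rnr1 by 1.52 ± 0.29 (edgeR adjusted p = 7.91e-06).

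The ratio of both mt-rRNAs overlapped between genotypes. mt-Rnr2 had 509, 458 and 435 counts per 100 mt-Rnr1 counts in KO and 469, 426 and 522 in WT libraries (exact permutation test, p = 0.8). The ratio rests on 12 to 59 mt-Rnr1 counts in a library, and a test of so few libraries cannot show that it was unchanged. Per 100 nt of gene, mean levels of mt-Rnr2 were 3.46 in KO and 5.30 in WT, and of mt-Rnr1 1.24 in KO and 1.82 in WT, in scaled counts. The most abundant mt-tRNA lay far above on this per-length scale, at 72.8 in KO and 362 in WT for mt-Ts2. Relative to mt-tRNA, mt-rRNA had 56.9, 46.2 and 22.0 counts per 100 mt-tRNA counts in KO and 27.2, 22.5 and 14.4 in WT libraries. KO replicate 3 lay within the WT range, and the log2 ratio of the means was 0.97 (exact permutation test, p = 0.3), or 1.05 without both replicate 3 libraries. Replicate 3 was the lowest in both genotypes.

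Counts of nuclear rRNA fell on few entries. Of the 305 entries, 30 had any count, 13 had at least 10 counts and 275 were at 0 in all 6 libraries. By name, 148 were 5S entries (n-R5s) with 278 counts, 1 was a 5.8S entry with 1 count, and 156 were predicted genes (Gm) with 98 counts. The 5S entries summed to 9.80, 10.9 and 16.8 scaled counts in KO, against 23.9, 22.5 and 45.1 in WT libraries. The Gm entries summed to 2.13, 4.10 and 6.98 scaled counts in KO, against 13.4, 9.69 and 10.97 in WT libraries. Both groups had every KO library below every WT library on the miRNA scale (exact permutation test, p = 0.1 each), as did 79.3% of all tested entries.

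Gm24312 had the most counts of a single rRNA entry, 57, and n-R5s136 the next, 35. Of the 30 rRNA entries with counts, 27 held at least 1 stretch of 20 bases found in no other rRNA entry. Such stretches were the smaller part of the entries with most counts, 20 of 100 in Gm24312 and 19 of 100 in n-R5s136. In n-R5s101 they were 1 of 100. How reads that match several copies were treated is not stated in the sources used here. The split of counts among rRNA entries, Gm24312 included, is therefore uncertain, and the sum is the firmer value. Gm24312 had 0.852, 2.05 and 1.23 scaled counts in KO, against 8.90, 7.65 and 7.32 in WT libraries, from 2 to 3 counts in each KO library and 15 to 18 in each WT library. The genotypes lay well apart and replicate 3 did not stand out. Its log2 fold change was -2.56 ± 0.49 (SE; edgeR adjusted p = 7.16e-06), or -2.59 without both replicate 3 libraries, and with whole-table TMM factors -0.57 ± 0.54 (edgeR adjusted p = 0.337). n-R5s136 had 0.852, 0.683 and 2.05 scaled counts in KO and 3.89, 3.57 and 5.28 in WT libraries, also without overlap.

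The other 4 of the 6 most abundant rRNA entries, n-R5s127, Gm24089, n-R5s101 and n-R5s115, had 30 counts each and overlapped between genotypes. n-R5s101 averaged 2.44 ± 0.64 scaled counts in KO and 2.36 ± 1.76 in WT, and Gm24089 averaged 2.33 ± 2.06 in KO and 2.47 ± 1.97 in WT (SD, n = 3 each). n-R5s127 averaged 1.89 ± 0.77 in KO and 3.02 ± 0.70 in WT, and n-R5s115 averaged 0.917 ± 0.64 in KO and 3.50 ± 3.91 in WT (SD, n = 3 each). Of the 6 most abundant, 2 were thus without overlap. Among entries that passed the count filter 79.3% were lower in KO in this way. Of these 6 only Gm24312 passed that filter, so the shares cover unlike sets. With the count filter left off, 6 of the 30 rRNA entries with counts were lower in KO in edgeR and none was higher, where 62.9% of all entries were lower.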

How the data were processed

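Small RNA of 6 libraries was isolated with a mirVana kit and made into libraries with an Ion Total RNA-Seq kit, per the labels' protocols. The deposited values are raw counts of whole reads for each reference RNA and library, made by the authors with featureCounts v1.5.0-p2, per the file headers. The command in the header names no option for strand or for reads matching several sequences. The submitters' processing notes also name cutadapt, DESeq2 and mm9. The sources used here do not give the aligner. The indexed length of each of the 329 members was 20 nt more than its GENCODE M21 transcript. mt-tRNA sequences and mitochondrial coordinates are those of GENCODE M21 on GRCm38, found by transcript ID, and no coordinate was taken from the deposited table. The separate piRNA table was not used. The sequences of the rRNA entries are not reported here.

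Class sums were divided by the miRNA total of each library. Single entries were tested over the whole table by the quasi-likelihood test of edgeR 4.0.16 (R 4.3.3), KO against WT without a block, with miRNA totals as library sizes. Entries had to pass filterByExpr at a count of 10 and a total of 15. Benjamini-Hochberg adjustment ran over all tested entries, with a threshold of 0.05. The SE is the log2 fold change divided by the square root of F. Sums, ratios and shares were compared with two-sided exact permutation tests in Python 3.11.15 with scipy 1.17.1. The edgeR step was tested on simulated counts with the same dispersion for all entries and no step at replicate 3. That test therefore does not cover the spread of the members seen here. Intervals and the limit for a count of 0 (3 counts) cover counting error only.

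Every mt-tRNA and mt-rRNA is named, with rRNA by kind and the 6 entries of the highest mean. The members, lists, tests and alternatives were chosen with earlier results of these data known. Alternatives were other library sizes (TMM factors of the whole table or of the miRNAs, the table total, DESeq2 size factors), the DESeq2 1.42.0 Wald test, filters, a replicate block and libraries left out. Those added after seeing the data were the mt-tRNA total (also with the replicate block or libraries left out), TMM factors of all entries other than piRNAs, the ratio of mt-rRNA to mt-tRNA, and libraries left out for shares.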

Additional observations from a re-analysis of the deposited data

How the results depend on the processing

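Scaling set most directions. With the table total, the log2 ratio of the class sums was 0.42 for mt-tRNA, 1.18 for mt-rRNA and 0.47 for rRNA. With whole-table TMM factors, log2 fold changes turned positive for mt-Rnr1 (1.52), mt-Rnr2 (1.46), mt-Tf (1.68), mt-Te (0.81), mt-Tv (0.83), mt-Tm (1.66), mt-Td (0.84), mt-Ta (0.27), mt-Ti (0.97), mt-Tr (2.00), mt-Tq (0.65) and mt-Tn (0.44). With the table total they were 1.24 for mt-Rnr1, 1.18 for mt-Rnr2, 1.38 for mt-Tf, 0.52 for mt-Te, 0.52 for mt-Tv, 1.36 for mt-Tm, 0.56 for mt-Td, 0.69 for mt-Ti, 1.71 for mt-Tr, 0.37 for mt-Tq and 0.15 for mt-Tn. With the mt-tRNA total, mt-Rnr2 (0.97), mt-Ti (0.52) and mt-Tq (0.20) turned positive. mt-Ts2 and Gm24312 kept a negative sign under all alternatives run and lost the call under these 3 scalings only.

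Of all entries, 20644 were lower and 1439 higher in KO on the miRNA scale. The counts were 10617 lower and 8659 higher with whole-table TMM factors, 12134 lower and 7430 higher with the table total, and 6225 called in either direction, 5138 of them lower, with the mt-tRNA total. TMM factors of all entries other than piRNAs gave 2287 higher. Of the members, 10 were lower on the miRNA scale. That count was 0 with whole-table TMM factors, the table total or the mt-tRNA total. It was 6 with TMM factors of the miRNAs, DESeq2 size factors of the miRNAs or TMM factors of all entries other than piRNAs. All entries lower with these numbered 20126, 20122 and 19548, in that order. Members lower numbered 16 of 54 tested with no filter, 4 of 6 with a minimum count of 30, and 4 of 14 with the DESeq2 Wald test. All entries lower there numbered 25540, 14264 and 19957, in that order. The DESeq2 Wald test kept mt-Ts2, mt-Ta, mt-Tq and Gm24312. It lost mt-Tv (-1.32), mt-Tn (-1.66), mt-Te (-1.29), mt-Td (-1.23), mt-Ti (-1.06) and mt-Rnr2 (-0.61) at much the same folds. Members higher in KO numbered 6 with whole-table TMM factors, 5 with the table total and 1 with no filter. The causes were not tested, beyond the fewer entries that a stricter filter leaves.

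With each library left out in turn, members lower in KO numbered 3 to 13, and members higher numbered 0 to 1. Members lower were 3 of 14 tested without WT replicate 3, 6 of 16 without KO replicate 1 or KO replicate 2, and 13 of 13 without KO replicate 3. Of all entries, 19910 to 21992 were lower and 1218 to 1643 higher. The log2 ratio of mt-tRNA per snoRNA ran from -0.0048 to 0.33 and that of the light-strand share from -0.14 to 0.39. mt-tRNA shares without overlap numbered 5 to 10: 10 without KO replicate 3 or without both replicate 3 libraries, and 8 without WT replicate 2. Fewer libraries make separation easier, and the share of all entries without overlap was not computed for these sets.

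The replicate block gave 11 lower members and 22154 called entries in place of 22083, the added member being mt-Tm (-0.49; edgeR adjusted p = 0.0213). On the mt-tRNA total, members called numbered 5 of 14 with the replicate block in place of 0 (mt-Ts2 lower, mt-Tm, mt-Tr, mt-Rnr1 and mt-Rnr2 higher, where 69.8% of all entries were called), 4 of 8 without both replicate 3 libraries, and 0 with any single library left out. Same-numbered libraries correlated with r = 0.022, 0.074 and 0.113 in their deviations over 26032 entries, not all above 0.1, so the numbers were not taken as pairs over the table. Over the 284 entries other than piRNAs and miRNAs, to which the members belong, r was 0.237, 0.459 and 0.672. Each library correlated best with its own number in both sets, which is a hint from the data, not the design. Log2 ratios within numbers averaged -1.50 for mt-tRNA, -0.60 for mt-rRNA and -1.33 for rRNA (exact sign flips, p = 0.25 each, the smallest that 3 pairs allow). With 3 libraries a genotype, the permutation tests could not reach the threshold, and low counts limited most rRNA entries and the rarer mt-tRNAs.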
